A study of Mus musculus with 4 samples.

Results

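The non-classical MHC class I genes, also called class Ib genes, were examined in RNA sequencing libraries of tumor associated macrophages (TAMs) from NB9464 tumors. The 10 members were H2-Q4, H2-Q6, H2-Q7, H2-Q10, H2-T10, H2-T22, H2-T23, H2-T24, H2-M2 and H2-M3. They were the rows of the deposited count table whose Ensembl identifier carries one of these symbols in GENCODE release M21, and all 10 were found among 54532 rows. H2-M2, H2-Q7, H2-Q6, H2-Q4 and H2-Q10 were among the antigen presentation genes that the study drew from these same libraries, so their direction here is not independent evidence of it.

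NB9464 is a murine neuroblastoma line with amplified MYCN, and 4000000 of these cells were injected into untreated mice of 4 to 6 weeks of age on the C57BL/6 background, with collection of tumors 40 days later. The group SYK WT (libraries M7 and M8) came from mice with intact myeloid Syk, and the group SYK KO (M9 and M10) from mice in which floxed Syk is deleted by Cre expressed from the lysozyme M locus (Lyz2), a locus active in macrophages and in granulocytes. Whether the controls carried Cre or floxed alleles, the sex of the mice and how many mice went into a library were not given in the sources used here, so p-values measure only the spread between these libraries, which may be technical. CD11b and F4/80 magnetic beads were used to take the cells, and libraries were made from polyA RNA. The labels also speak of RNA from BMDMs (bone marrow derived macrophages) and of adoptive transfer, which does not match the tumor isolation they describe.

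Each library held between 20755886 and 23518045 counts. Mitochondrial genes took 2.20% and 2.34% of the counts in M7 and M8, and 6.00% and 15.9% in M9 and M10. Syk had 765 and 569 counts in the SYK WT libraries and 4033 and 2944 in those labelled SYK KO, which goes against the label, and Lyz2 moved the other way (8109 and 5115 against 178 and 371 counts). Counts are per gene, so reads from Syk exons outside a deleted part are included. In the common lysozyme M Cre strain, Cre is inserted into Lyz2 and interrupts it. Whether the controls carried Cre is not known here, so the bearing of Lyz2 on the label was not tested. Whether the labels are correct was not tested either. Group names follow the labels throughout, and a gene called higher or lower is so in M9 and M10 relative to M7 and M8. The 10 macrophage markers were all detected, and their summed level was 1122 and 776 CPM (counts per 1000000 counts after TMM normalization) in M7 and M8 against 9212 and 5799 in M9 and M10. The 8 fibroblast markers summed to 12612 and 14509 CPM in M7 and M8 and to 4115 and 5031 CPM in M9 and M10. T cell markers (4.23 to 9.55 against 34.9 to 57.2 CPM), B cell markers (1.06 to 1.60 against 8.01 to 8.93), dendritic cell markers (10.8 to 12.2 against 45.4 to 50.1) and neutrophil markers (24.5 to 39.3 against 201 to 407) were also higher in the libraries labelled SYK KO. NK cell markers overlapped (1.59 to 1.93 against 0.763 to 2.91 CPM), while summed endothelial markers (201 to 202 against 141 to 154) and summed hepatocyte markers (4.39 to 11.6 against 0.437 to 1.04) were lower. Of the 8 endothelial markers, 3 were lower at an adjusted p under 0.05 and 5 did not pass. The hepatocyte sum in M7 and M8 was mostly Alb (9.55 and 3.26 CPM), and Apoa2 overlapped (15 and 17 against 8 and 18 counts). The summed neuroblastoma markers overlapped (284 to 323 against 209 to 332 CPM) and were mostly Hand2 (262 and 301 against 178 and 286 CPM), but Mycn was higher (log2 fold change 0.74, adjusted p = 0.0415 by edgeR's quasi-likelihood test), Gata3 had 5 and 7 against 24 and 40 counts, and Th and Dbh were at 0 in every library.

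Classical class I molecules (H2-K and H2-D in C57BL/6 mice) are highly polymorphic, are made by nearly all nucleated cells and present cytosolic peptides to CD8+ T cells. The non-classical molecules share their fold and mostly pair with beta-2 microglobulin (B2m), but they vary little between individuals and many have a narrow set of ligands. H2-T23 encodes the heavy chain of Qa-1, which displays leader peptides of classical class I molecules to CD94-NKG2 receptors of NK cells. H2-Q6 and H2-Q7 belong to the Qa-2 genes, H2-Q10 encodes a secreted molecule known from liver, H2-T10 and H2-T22 encode ligands of gamma delta T cell receptors that carry no peptide, and H2-M3 presents N-formylated peptides of bacteria and mitochondria. Class I genes are induced by interferons and by NLRC5.

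With TMM normalization the members were higher as a group in the libraries labelled SYK KO, whereas with the libraries scaled to macrophage markers or to pan-leukocyte genes 2 members were higher and 3 lower. In those scaled fits 0.76% and 0.559% of all genes tested were higher and 87.3% and 90.7% lower. By edgeR's quasi-likelihood test with adjustment over all 16451 genes tested, 8 of the 10 members rose, 0 fell, and 2 (H2-T10 and H2-M3) did not pass the threshold of 0.05. Over all genes tested, 22.7% were higher and 16.7% were lower. The median log2 fold change was 2.83 over the members and 0.02 over all genes tested. Each member was higher in both libraries labelled SYK KO than in both SYK WT libraries, a pattern shown by 38% of all genes tested. All 10 members had at least 19 counts in every library, so none entered the test through one group alone. DESeq2's Wald test called the same 8 members, beside 18.9% of all genes higher. In bulk RNA, a larger number of cells that express these genes and more RNA in each such cell cannot be told apart. The summed macrophage, T cell, B cell, dendritic cell and neutrophil markers listed above moved the same way, while the summed NK cell markers overlapped.

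**Figure D1:**
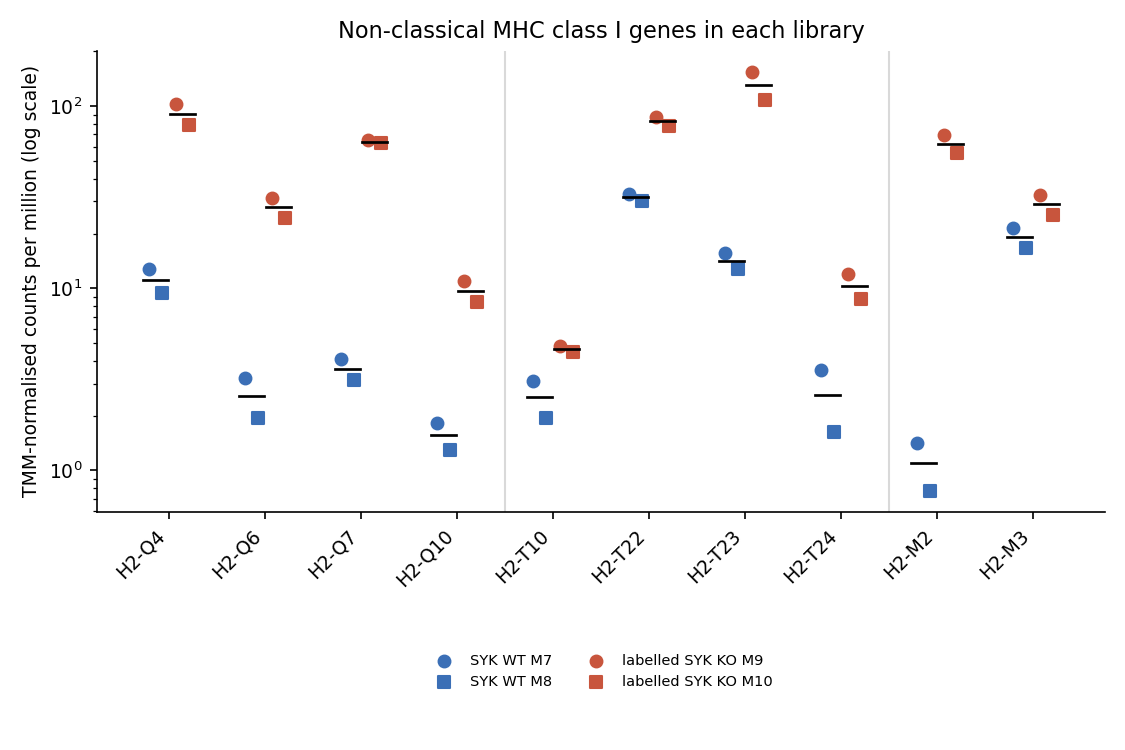
TMM-normalised CPM (log axis) of the 10 members in the 4 libraries; blue points are SYK WT (M7, M8), red points are the libraries labelled SYK KO (M9, M10), and black lines are group means. Every red point lies above the blue points of the same gene, by the most for H2-M2 (1.10 against 62.2 CPM) and by the least for H2-M3 (19.1 against 28.9 CPM), a direction that flips for H2-Q10, H2-T10, H2-T22, H2-T24 and H2-M3 when libraries are scaled to macrophage markers.

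The 4 H2-Q members lie on the plus strand of chromosome 17 (GRCm38), from H2-Q4 (ENSMUSG00000035929, 35379617 to 35385290) through H2-Q6 (ENSMUSG00000073409, 35424850 to 35430055) and H2-Q7 (ENSMUSG00000060550, 35439155 to 35443773) to H2-Q10 (ENSMUSG00000067235, 35470089 to 35474563), and all 4 rose. H2-Q7, a Qa-2 gene, had 113 and 77 counts in M7 and M8 and 1346 and 1147 in M9 and M10. Its level went from 3.63 ± 0.697 to 63.9 ± 2.01 CPM (SD, n = 2 libraries in each group here and below). The groups lay far apart, and the 17.6-fold difference was the largest of the Q members (log2 fold change 4.13, SE 0.212, adjusted p = 0.000486). H2-Q6, the other Qa-2 gene, had 88, 48, 649 and 445 counts in M7 to M10. It rose from 2.58 ± 0.887 to 27.9 ± 5.13 CPM, a log2 fold change of 3.43 (SE 0.323, adjusted p = 0.00116). H2-Q4 held the most counts of the group, with 351, 233, 2122 and 1454. Its level rose from 11.1 ± 2.34 to 91.1 ± 16.8 CPM, a log2 fold change of 3.03 (SE 0.233, adjusted p = 0.000758). H2-Q10, known as the secreted class I molecule of liver, was the lowest in counts, with 50, 32, 227 and 155. It rose from 1.56 ± 0.368 to 9.73 ± 1.82 CPM, a log2 fold change of 2.63 (SE 0.377, adjusted p = 0.00378). The hepatocyte gene Alb went the other way, with 262 and 80 counts in M7 and M8 and 0 in M9 and M10.

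The 4 H2-T members lie on the minus strand of chromosome 17, H2-T24 (ENSMUSG00000053835) at 36005695 to 36020560, H2-T23 (ENSMUSG00000067212) at 36029773 to 36032855, H2-T22 (ENSMUSG00000056116) at 36037128 to 36042747 and H2-T10 (ENSMUSG00000079491) at 36115876 to 36121465. GENCODE lists H2-T10 as a polymorphic pseudogene and the other 9 members as protein coding. H2-T23, the Qa-1 gene, had 431 and 313 counts in M7 and M8 and 3188 and 1978 in M9 and M10. Its level rose 9.22-fold, from 14.2 ± 2.10 to 131 ± 33.2 CPM (log2 fold change 3.21, SE 0.241, adjusted p = 0.000729). H2-T22, a gamma delta T cell receptor ligand, had 903, 742, 1797 and 1432 counts in M7 to M10. It was the H2-T member with the most counts in the SYK WT libraries, and it rose less, from 31.6 ± 1.93 to 82.6 ± 6.51 CPM (log2 fold change 1.39, SE 0.158, adjusted p = 0.00191). H2-T24 had 98, 40, 247 and 160 counts (2.60 ± 1.38 and 10.35 ± 2.31 CPM). Its SYK WT libraries differed more than 2-fold from each other, and the log2 fold change was 1.99 (SE 0.456, adjusted p = 0.0169). With scaling to library size alone it did not pass the threshold (1.46, adjusted p = 0.0508). It was 1.52 without M8 and 2.66 without M7, fits that leave 1 SYK WT library and are given without a test. H2-T10, the other gamma delta ligand gene, had 85, 48, 100 and 82 counts. Its levels were 2.53 ± 0.810 and 4.66 ± 0.273 CPM, and the log2 fold change of 0.88 (SE 0.422, adjusted p = 0.141) did not pass the threshold. As single libraries were left out it ranged from 0.58 (without M8) to 1.25 (without M7), likewise without a test. H2-T10 was lower with 3 of the scalings to other genes given below.

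The 2 H2-M members lie further along chromosome 17, H2-M3 (ENSMUSG00000016206) on the plus strand at 37270220 to 37274484 and H2-M2 (ENSMUSG00000016283) on the minus strand at 37480851 to 37483552. They were the members with the smallest and the largest difference. H2-M2 had 39 and 19 counts in M7 and M8 and 1426 and 1012 in M9 and M10. The level rose from 1.10 ± 0.459 to 62.2 ± 9.96 CPM, 55.9-fold (log2 fold change 5.81, SE 0.321, adjusted p = 0.000486). By log2 fold change H2-M2 had rank 41 of the 16451 genes tested. H2-M3, which presents N-formylated peptides, had 589, 410, 667 and 466 counts. Its levels were 19.1 ± 3.39 and 28.9 ± 4.94 CPM, and the log2 fold change of 0.60 (SE 0.219, adjusted p = 0.0721) did not pass the threshold. It passed with no filter on low counts (0.58, adjusted p = 0.0461) and lay nearer 0 with scaling to library size alone (0.07, adjusted p = 0.844). As single libraries were left out it was 0.79 (without M7), 0.42 (M8), 0.32 (M9) and 0.78 (M10). Those fits leave 1 library in a group, so no test of them is given.

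Paralogous class I genes share stretches of sequence, so reads can be divided among them in counting. In GENCODE transcripts, 53.0% of the windows of 31 bases in H2-Q4, 51.8% in H2-Q6, 39.2% in H2-Q7 and 30.3% in H2-Q10 also occurred in another gene. The pair H2-T10 and H2-T22 shared 47.6% and 47.2% of their windows with each other, while H2-T23 shared 25.8%, H2-T24 6.61%, H2-M3 4.62% and H2-M2 3.20% with any gene. At the read length of 150 bases, the shared part was 22.3% for H2-T22 and 20.9% for H2-T10, between 3.43% and 9.87% for the H2-Q members, 0.331% for H2-T23 and 0 for H2-T24, H2-M2 and H2-M3. Nearly all of it lay with genes that are no members for H2-T22 (21.9% with A930015D03Rik), H2-T10 (20.5% with BC023719) and H2-Q4 (9.87% with Gm11131), while H2-T22 and H2-T10 shared 0.384% and 0.393% with each other. A sum over a paralog group does not depend on how its members divide reads, but it does depend on reads shared with such other genes. The summed H2-Q members rose 10.28-fold, from 18.9 ± 4.30 to 193 ± 25.8 CPM. The summed H2-T members went from 50.9 ± 6.22 to 229 ± 42.3 CPM (4.48-fold), and the summed H2-M members from 20.2 ± 3.85 to 91.1 ± 14.9 CPM (4.53-fold). In each sum both libraries labelled SYK KO lay above both SYK WT libraries. Summed over all 10 members, the level was 90.0 ± 14.4 and 513 ± 83.0 CPM (5.70-fold), and with every H2-Q, H2-T and H2-M class I row of the table (28 rows) the ratio was 5.46-fold. The sums were not tested: an exact permutation test of 2 against 2 libraries cannot go below p = 0.333, and no model was fitted to them.

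The make-up of each paralog group differed between the groups of libraries. H2-M2 held 6.21% (95% exact binomial interval 4.45% to 8.39%) and 4.43% (2.69% to 6.83%) of the summed H2-M member counts in M7 and M8, and 68.1% (66.1% to 70.1%) and 68.5% (66.0% to 70.8%) in M9 and M10. The pair thus turned from mostly H2-M3 to mostly H2-M2. Among the H2-T members, H2-T23 held 28.4% and 27.4% in M7 and M8 and 59.8% and 54.2% in M9 and M10, whereas H2-T22 held 59.5% and 64.9% and then 33.7% and 39.2%. Qa-1 transcripts thereby took the first place that H2-T22 had in the SYK WT libraries. Among the H2-Q members, H2-Q7 went from 18.8% and 19.7% to 30.99% and 35.8%, and H2-Q4 from 58.3% and 59.7% to 48.8% and 45.4%. H2-Q6 kept overlapping shares, with 14.6% and 12.3% against 14.9% and 13.9%. These intervals cover counting error only, since reads were not tagged by molecule and can be copies of each other.

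**Figure D2:**
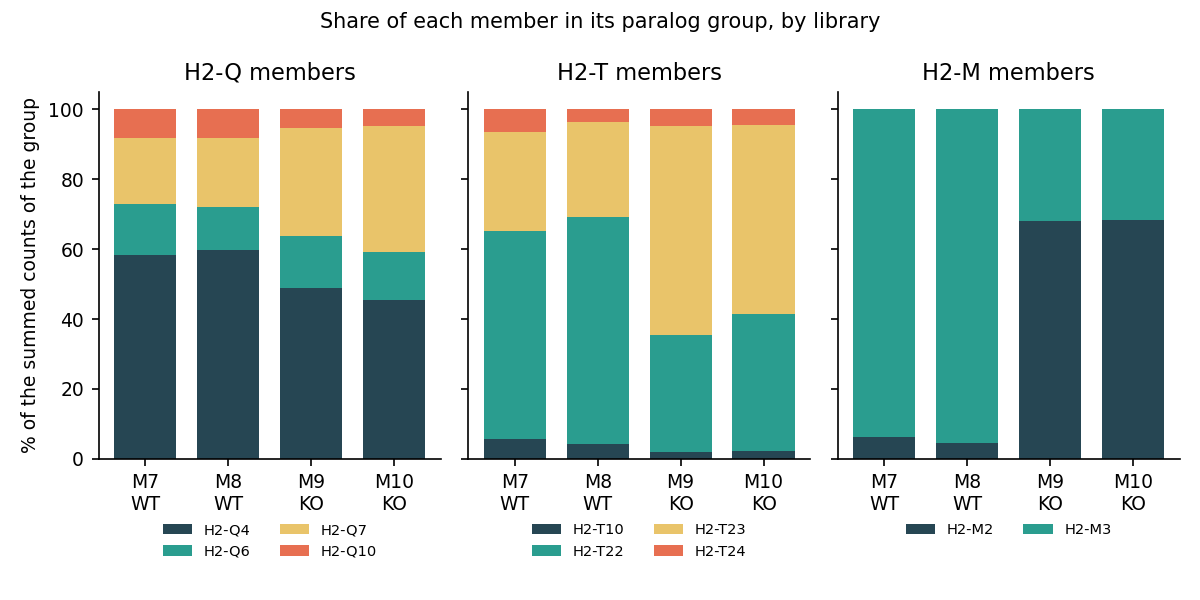
Stacked bars of the share of each member in the summed counts of its paralog group, in % (vertical axis from 0 to 100), for the libraries M7 and M8 (SYK WT) and M9 and M10 (labelled SYK KO). The share of H2-M2 in the H2-M pair goes from 6.21% and 4.43% to 68.1% and 68.5%, and that of H2-T23 among the H2-T members from 28.4% and 27.4% to 59.8% and 54.2%.

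Ratios to the classical class I genes were taken within each library and so do not depend on the scaling between libraries. The classical genes rose too, H2-K1 from 80.4 ± 14.3 to 771 ± 139 CPM (log2 fold change 3.26, SE 0.244, adjusted p = 0.000729) and H2-D1 from 302 ± 46.01 to 1506 ± 345 CPM (2.32, SE 0.262, adjusted p = 0.00185). The summed members made 23.6 and 23.5 counts per 100 counts of H2-K1 plus H2-D1 in M7 and M8, and 21.8 and 23.5 in M9 and M10. The total of the members therefore stood in nearly the same proportion to this sum in all 4 libraries, while single members did not. Against H2-K1 alone, the total was 1.68-fold less in the libraries labelled SYK KO (111 and 114 against 65.7 and 67.5 counts per 100 H2-K1 counts). Against B2m it was 1.52-fold more there (19.6 and 22.1 against 28.7 and 34.8 counts per 100 B2m counts).

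H2-M2 and H2-Q7 rose beyond the classical genes. H2-M2 made 0.335 and 0.228 counts per 100 classical counts in M7 and M8 and 2.64 and 2.85 in M9 and M10, a 9.94-fold difference. With the libraries scaled to H2-K1 plus H2-D1, an alternative added after the data were seen, its log2 fold change was 3.27 (SE 0.441, adjusted p = 6.53e-06). H2-Q7 made 0.969 and 0.922 against 2.49 and 3.23 counts per 100, and its log2 fold change in the scaled fit was 1.60 (SE 0.378, adjusted p = 0.000995). These were the only members higher in that fit, in which 1.62% of all genes tested were higher.

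H2-M3, H2-T10 and H2-T22 fell against the classical genes. H2-M3 made 5.05 and 4.91 counts per 100 classical counts in M7 and M8 and 1.24 and 1.31 in M9 and M10, 3.91-fold less (log2 fold change in the scaled fit -1.97, SE 0.335, adjusted p = 5.46e-05). H2-T22 made 7.75 and 8.89 against 3.33 and 4.03, 2.26-fold less (-1.18, SE 0.312, adjusted p = 0.00233). H2-T10 made 0.729 and 0.575 against 0.185 and 0.231, 3.13-fold less (-1.65, SE 0.596, adjusted p = 0.0167). In none of the 3 did the ratios of the groups overlap. In the same fit 86.7% of all genes tested were lower, since the median gene fell by 2.54, so these members were lower than H2-K1 and H2-D1 as most genes were.

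The other 5 members did not pass the threshold against the classical genes. H2-T23 made 3.70 and 3.75 counts per 100 classical counts in M7 and M8 and 5.91 and 5.57 in M9 and M10 (log2 fold change in the scaled fit 0.62, SE 0.309, adjusted p = 0.0681). H2-Q4 made 3.01 and 2.79 against 3.93 and 4.09 (0.47, SE 0.320, adjusted p = 0.177), and H2-Q6 0.755 and 0.575 against 1.20 and 1.25 (0.88, SE 0.452, adjusted p = 0.0773). The ratios of these 3 were higher in both libraries labelled SYK KO, although the test was not passed. H2-Q10 overlapped (0.429 and 0.383 against 0.421 and 0.436), and H2-T24 was uncertain (0.841 and 0.479 against 0.458 and 0.451; log2 fold change -0.54, SE 0.547, adjusted p = 0.353). Against H2-K1 alone, H2-T23 stayed level (17.4 and 18.1 against 17.8 and 16.0 counts per 100 H2-K1 counts), while H2-Q4 turned lower without overlap (14.1 and 13.5 against 11.8 and 11.8), as did H2-Q10 (2.01 and 1.85 against 1.27 and 1.26). Per 100 counts of H2-K1 plus H2-D1, the summed H2-Q members were 1.73-fold more (5.16 and 4.67 against 8.05 and 9.01). The summed H2-T members were 1.32-fold less and the summed H2-M members 1.31-fold less. Per 100 counts of H2-K1 alone, the summed H2-Q members overlapped (24.3 and 22.6 against 24.2 and 25.9), whereas the summed H2-T members were 2.14-fold less (61.1 and 66.1 against 29.8 and 29.6) and the summed H2-M members 2.12-fold less (25.3 and 24.8 against 11.7 and 11.97).

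**Figure D3:**
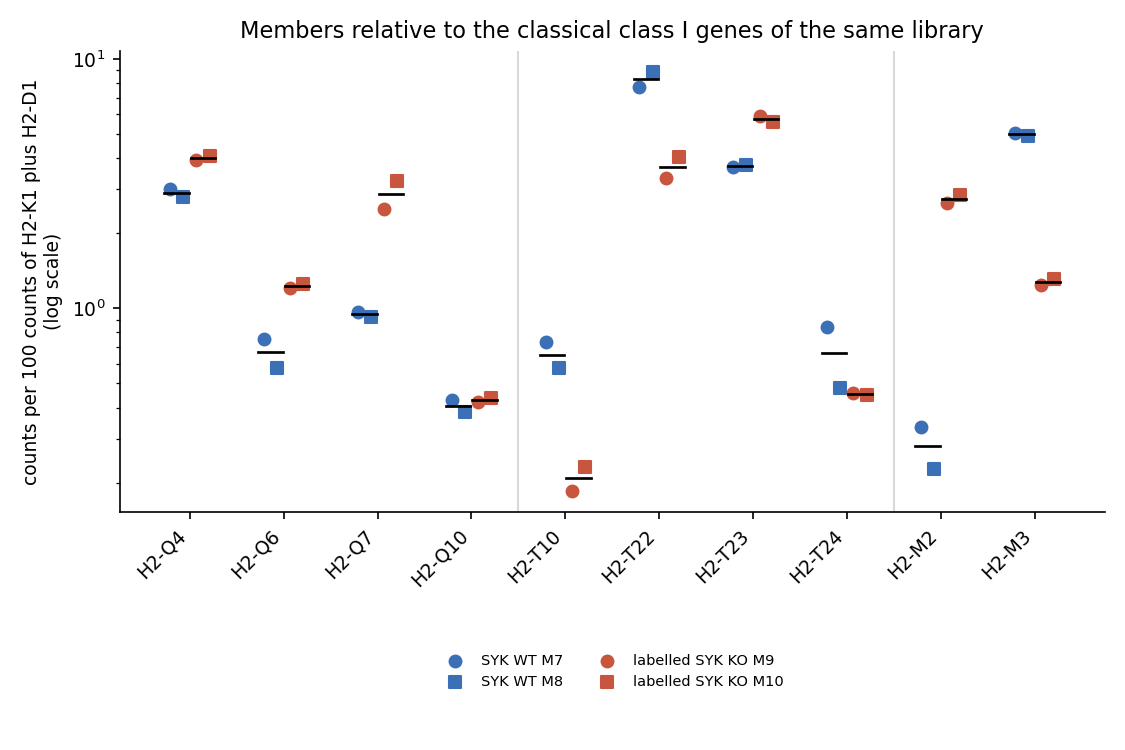
Counts of each member per 100 counts of H2-K1 plus H2-D1 in the same library (log axis); blue points are SYK WT (M7, M8), red points are labelled SYK KO (M9, M10), and black lines are group means. H2-M2 and H2-Q7 lie higher in red (2.64 and 2.85 against 0.335 and 0.228 for H2-M2), H2-M3, H2-T22 and H2-T10 lie lower, and H2-Q10 overlaps.

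Other references were used in the same way, since most of the summed leukocyte markers above differed between the groups. Scaled to B2m, the partner chain of class I and also an alternative added after the data were seen, 5 members were higher (H2-Q4, H2-Q6, H2-Q7, H2-T23 and H2-M2) and 1 was lower (H2-M3), beside 2.72% of all genes higher and 72.4% lower. Scaled to the 10 macrophage markers, H2-M2 (log2 fold change 3.05, adjusted p = 5.40e-06) and H2-Q7 (1.35, adjusted p = 0.0203) were higher, and H2-M3 (-2.22, adjusted p = 7.59e-05), H2-T22 (-1.43, adjusted p = 0.00691) and H2-T10 (-1.88, adjusted p = 0.0211) were lower. H2-T23 (0.36, adjusted p = 0.497) and H2-Q4 (0.22, adjusted p = 0.694) stood close to the macrophage markers. In that fit 0.76% of all genes were higher and 87.3% lower. Scaled to the 6 pan-leukocyte genes, H2-M2 (2.61, adjusted p = 2.34e-05) and H2-Q7 (0.94, adjusted p = 0.0462) were again the members higher and the same 3 members were lower, beside 0.559% and 90.7% of all genes. H2-M2 and H2-Q7, which had the largest log2 fold changes of the members by TMM, were thus higher under each of these 5 scalings, TMM included. H2-M3 had the lowest log2 fold change of the members in each. A scaling moves every gene by a like amount, so each of these results is a single observation and not 5. The median of all genes tested was -1.88 with B2m scaling, -2.54 with H2-K1 plus H2-D1, -2.79 with macrophage markers and -3.20 with pan-leukocyte genes. Relative to that median, the log2 fold change was 5.81 to 5.84 for H2-M2, 4.13 to 4.15 for H2-Q7 and 0.57 for H2-M3 in these 4 fits.

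**Figure D4:**
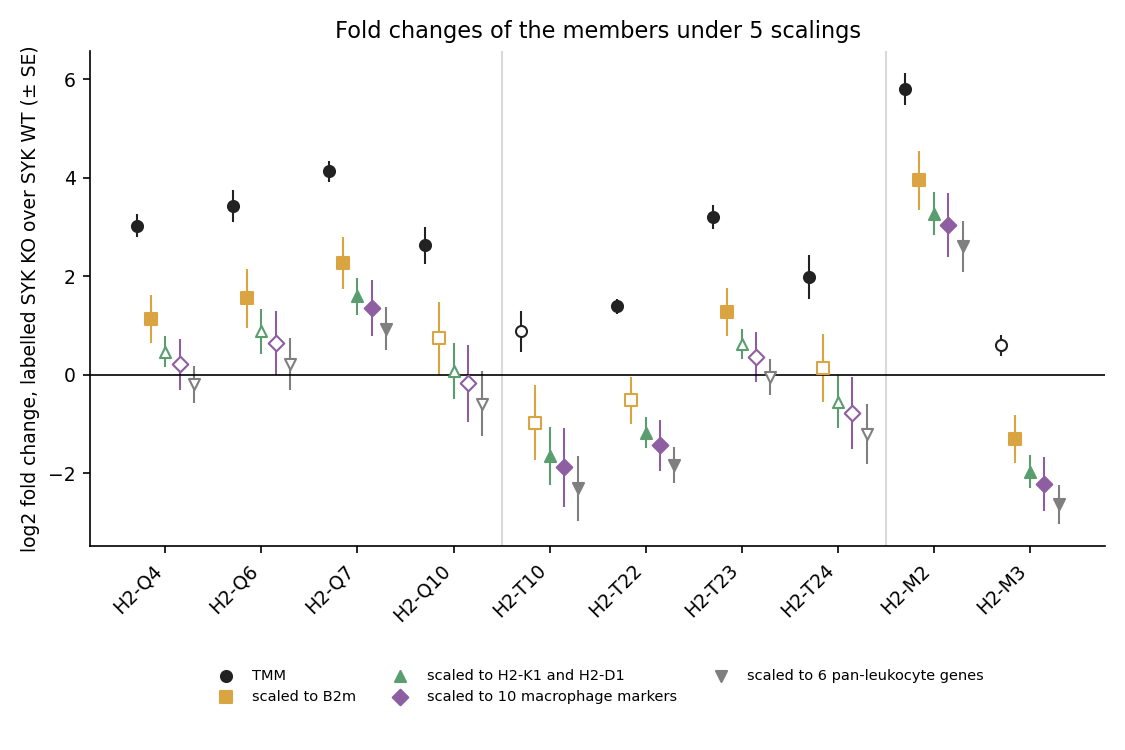
Log2 fold change (vertical axis, labelled SYK KO over SYK WT) of each member with its SE under 5 scalings of the libraries; filled symbols have an adjusted p under 0.05 and open symbols do not. H2-M2 and H2-Q7 stay above 0 throughout (5.81 to 2.61 and 4.13 to 0.94), H2-M3, H2-T10 and H2-T22 lie below 0 under each scaling except TMM, and H2-Q4, H2-Q10, H2-T23 and H2-T24 lie below 0 under some.

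Levels of different members were compared per kilobase of exon, scaled to 1000000 per library. In the SYK WT libraries H2-M3 was the highest member (52.2 ± 10.64), followed by H2-T22 (36.3 ± 3.19), H2-T23 (19.3 ± 3.38) and H2-Q4 (16.9 ± 3.99). H2-T23 and H2-Q4 overlapped, while the step from H2-M3 to H2-T22 and that from H2-T22 to H2-T23 did not. The remaining members lay at 4.88 ± 1.80 (H2-Q6), 4.71 ± 2.60 (H2-T24), 3.34 ± 0.731 (H2-Q7), 2.91 ± 1.01 (H2-T10), 2.79 ± 1.23 (H2-M2) and 1.41 ± 0.370 (H2-Q10), and the ranges of the first 5 of these overlapped. In the libraries labelled SYK KO the order was H2-T23 (89.8 ± 39.6), H2-M2 (78.5 ± 27.8), H2-Q4 (68.9 ± 26.0), H2-T22 (47.0 ± 12.99), H2-M3 (39.4 ± 14.4), H2-Q7 (29.0 ± 6.68), H2-Q6 (26.2 ± 9.89), H2-T24 (9.35 ± 3.87), H2-Q10 (4.39 ± 1.67) and H2-T10 (2.64 ± 0.679). M9 and M10 gave this same order, although neighbouring ranges overlapped down to H2-Q6 because M9 was higher for every member. H2-M2 thereby went from rank 9 to rank 2 of the members, and H2-M3 from rank 1 to rank 5. On this scale, which carries no TMM factor, the means of H2-M3 and H2-T10 were lower in the libraries labelled SYK KO, the other way from their TMM levels, with overlapping ranges (H2-M3 59.7 and 44.6 against 49.5 and 29.2, H2-T10 3.62 and 2.20 against 3.12 and 2.16). On the same scale H2-D1 stood at 460 ± 82.3 and 1151 ± 482, above every member in both groups.

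Promoter sequences are shown for members that stood above (H2-M2, H2-Q7), near (H2-Q4) and below (H2-T22, H2-M3) the classical genes, with H2-K1 beside them. RefSeq promoter windows on GRCm38.p6, from 250 bases before to 50 after the start, were at hand for 8 members, and the 200 bases printed here end before the start of transcription. Capitals mark matches on either strand to 6 short motifs. GGGATTCCC and GGGAATTCC resemble binding sites of NF-kappaB, and GTTTCACTT and GAAANNGAA resemble interferon response elements. TGATGAC resembles the X2 box, which is bound by CREB proteins, and CCAAT is the last motif. All sequences are in the direction of transcription, 5′ to 3′.
H2-M2 (chr17:37483555-37483754, minus strand): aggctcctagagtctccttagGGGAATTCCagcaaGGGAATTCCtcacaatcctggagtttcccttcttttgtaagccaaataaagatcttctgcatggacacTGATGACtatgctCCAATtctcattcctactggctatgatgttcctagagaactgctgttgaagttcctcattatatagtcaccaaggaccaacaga
H2-Q7 (chr17:35438955-35439154, plus strand): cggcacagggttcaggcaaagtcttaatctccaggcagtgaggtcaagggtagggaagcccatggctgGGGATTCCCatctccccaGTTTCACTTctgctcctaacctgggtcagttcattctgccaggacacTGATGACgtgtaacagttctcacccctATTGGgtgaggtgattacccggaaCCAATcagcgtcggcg
H2-Q4 (chr17:35379417-35379616, plus strand): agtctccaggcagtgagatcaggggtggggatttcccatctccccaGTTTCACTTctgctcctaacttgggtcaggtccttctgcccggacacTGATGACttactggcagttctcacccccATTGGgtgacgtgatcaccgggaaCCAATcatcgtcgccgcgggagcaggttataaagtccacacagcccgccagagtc
H2-T22 (chr17:36042748-36042947, minus strand): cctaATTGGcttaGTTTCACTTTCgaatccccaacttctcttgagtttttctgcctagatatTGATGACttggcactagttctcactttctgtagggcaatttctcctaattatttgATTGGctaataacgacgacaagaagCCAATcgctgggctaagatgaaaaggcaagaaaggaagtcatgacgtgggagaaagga
H2-M3 (chr17:37270020-37270219, plus strand): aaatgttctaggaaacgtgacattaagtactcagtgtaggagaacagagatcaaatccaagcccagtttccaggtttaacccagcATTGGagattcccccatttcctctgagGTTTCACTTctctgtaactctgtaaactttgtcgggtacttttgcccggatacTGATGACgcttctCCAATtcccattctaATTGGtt
H2-K1 (chr17:34000348-34000547, minus strand): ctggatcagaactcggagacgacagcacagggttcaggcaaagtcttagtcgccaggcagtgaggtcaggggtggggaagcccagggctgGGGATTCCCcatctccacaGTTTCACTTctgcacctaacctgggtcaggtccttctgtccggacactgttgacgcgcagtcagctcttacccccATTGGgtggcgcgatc
In H2-T22 the capitals GTTTCACTTTC hold overlapping matches to GTTTCACTT and, on the other strand, to GAAANNGAA.

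Over the whole window, GTTTCACTT occurred in 6 of the 8 members (H2-Q4, H2-Q6, H2-Q7, H2-Q10, H2-T22 and H2-M3) and in 0.399% of all 32851 promoter windows of this length. It began 154 bases before the start in H2-Q4, 114 in H2-Q7, 192 in H2-T22, 102 in H2-M3 and 91 in H2-K1. H2-D1 held it too. The members are paralogs, so their matches are not independent of each other, and the share over all windows is given as a description only. TGATGAC occurred in 6 members (H2-Q4, H2-Q6, H2-Q7, H2-T22, H2-M2 and H2-M3) and in 3.23% of all windows. GGGATTCCC was found in H2-Q6 and H2-Q7, as in H2-K1 and H2-D1, and in 0.353% of all windows. H2-M2 had no match to GTTTCACTT, to GAAANNGAA or to GGGATTCCC and held GGGAATTCC at 179 and 165 bases before the start, a motif in 0.225% of all windows and in no other member. GAAANNGAA occurred in H2-T22, H2-T23 and B2m and in 8.56% of all windows, and CCAAT in 7 of the 8 members, H2-Q10 being without it, and in 37.4% of all windows. A match is a string of letters and not a measured binding site. Only these exact strings were searched, so members that share them can differ at other sites. H2-Q4 and H2-M3 both hold GTTTCACTT, TGATGAC and CCAAT, with log2 fold changes of 3.03 and 0.60. Whether any motif bears on these levels was not tested.

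With TMM normalization many other genes of the class I pathway rose as well. Their values under the scalings to other genes, which lower every gene by a like amount, are not given here. Of 12 genes for assembly and peptide loading, 11 rose and 0 fell, beside 22.7% of all genes tested higher and 16.7% lower. Their median log2 fold change was 1.02. The largest were the immunoproteasome subunit Psmb8 (8.94 ± 1.998 to 139 ± 25.9 CPM, log2 fold change 3.96, adjusted p = 0.000624) and the peptide transporter subunit Tap1 (7.01 ± 1.63 to 94.3 ± 21.8 CPM, 3.75, adjusted p = 0.000674). Psmb9 (3.54) stood near them, whereas the other transporter subunit Tap2 (1.01) and the loading chaperone Tapbp (0.79) rose less. B2m rose by 1.92 (SE 0.306, adjusted p = 0.00517), less than 7 of the 10 members. The chaperone Calr did not pass the threshold (0.64, adjusted p = 0.0769). Of 10 transcriptional regulators of class I, 5 rose, 1 fell and 4 did not pass the threshold, beside the same 22.7% and 16.7% of all genes tested. Their median was 0.44. Irf8, a factor of myeloid cells, rose from 11.3 ± 1.11 to 93.3 ± 21.9 CPM (3.04, adjusted p = 0.000729), and the class I transactivator Nlrc5 from 5.85 ± 0.590 to 15.5 ± 0.0987 CPM (1.40, adjusted p = 0.00692). Irf1 was at 0.17 (adjusted p = 0.403). Of the RFX subunits, Rfxank fell by 0.73 (adjusted p = 0.0181), Rfxap rose by 0.62 (adjusted p = 0.0455) and Rfx5 did not pass the threshold (-0.83, adjusted p = 0.0570).

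Receptors for class I molecules and related receptors were counted by the cells that carry them. The 4 myeloid receptors tested, Pirb, Lilrb4a, Lilra5 and Lilra6, all rose, beside 22.7% of all genes tested, with a median log2 fold change of 2.90. The macrophage markers had a median of 3.01, so these receptors did not stand out from other genes of such cells. Pirb, an inhibitory receptor of myeloid cells that binds class I, went from 779 and 558 counts to 3972 and 2528 (2.69, adjusted p = 0.000929). Receptors of NK cells had few counts, and the limit of detection was taken as 3 counts (0.109 to 0.163 CPM). Klrd1, the CD94 chain that binds Qa-1, had 11, 8, 47 and 26 counts in M7 to M10. Its partner Klrc1 (NKG2A) had 6, 2, 5 and 6 counts and was not tested. Klrk1, with 39, 18, 205 and 73 counts, rose (log2 fold change 2.68, adjusted p = 0.0165). Of the T cell genes, Cd8b1 had 2, 0, 12 and 17 counts, Cd8a 5, 14, 11 and 0, and the gamma delta chain gene Trdc 24, 13, 5 and 0. Klrd1 and Cd8b1 passed the filter on low counts through the libraries labelled SYK KO alone, and Trdc through the SYK WT libraries alone, so no test of these 3 is given.

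**Figure D5:**
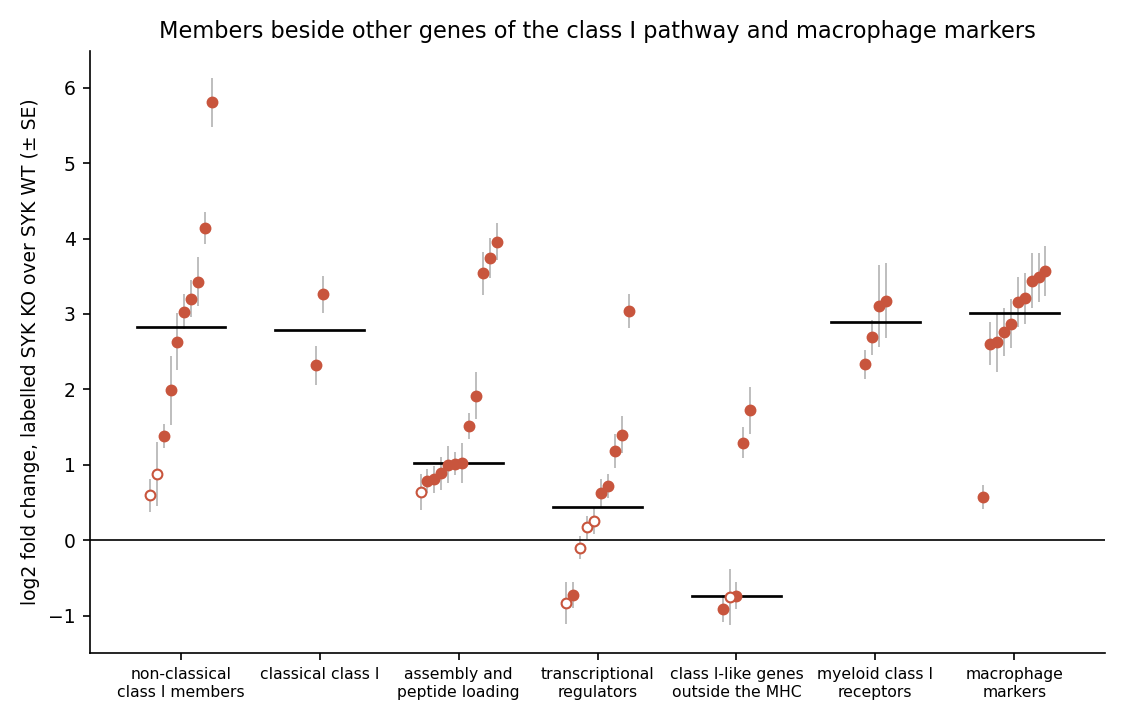
Log2 fold change with SE (vertical axis, labelled SYK KO over SYK WT) of the members, of 5 other gene lists of the class I pathway and of the macrophage markers; each point is 1 gene, filled where the adjusted p is under 0.05, and lines are list medians. The median is 2.83 for the members, 1.02 for assembly and loading genes, 0.44 for regulators and 3.01 for macrophage markers.

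The genes most like the summed members were sought by the distance between log2 levels over the 4 libraries, each centred on its mean, among 14253 other genes with an average of at least 1 CPM. The 5 nearest were Slfn5 (distance 0.034 on the log2 scale), Sh3bgrl3 (0.0381), Rap1gap2 (0.0658), AI467606 (0.0758) and Traf1 (0.110). With 4 libraries that differ mainly by group, such likeness rests on few points.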

How the data were processed

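The authors deposited raw whole-number counts for 4 libraries, one row per Ensembl gene of the mouse. Per the study's methods and the labels, reads were mapped to mm10 with STAR (2.6.1d in the submitters' processing notes) and quantified with Salmon (1.4.0), which can divide reads among similar genes; how its estimates became whole numbers and the annotation release are not given in the sources used here. The study's methods describe single reads in triplicate, the labels paired reads of 150 bases and 2 libraries a group. Groups came from the labels, and 0 other sample columns were present. The members and all gene lists were chosen with earlier results of these data known. Of 54532 rows, 54495 matched GENCODE M21 (GRCm38).

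Counts were filtered (filterByExpr), TMM-normalized and tested with edgeR 4.0.16 in R 4.3.3 (glmQLFit, glmQLFTest, two-sided), with Benjamini-Hochberg adjustment over 16451 genes and a threshold of 0.05. The SE is the absolute log2 fold change divided by the square root of F. The study used DESeq2, run here (1.42.0) as an alternative. On simulated counts of 16451 genes, edgeR called 60 of 99 genes changed by 1.5 and 92 of 98 changed by 3 on the log2 scale. Replicates differed beyond sampling noise (chi-square per degree of freedom 50.6 for SYK WT and 168 for SYK KO). Named genes were the members, H2-K1, H2-D1, B2m, Syk, Lyz2, genes from both ends and the middle of each pathway list, and the 5 genes nearest in pattern. Promoter windows are from RefSeq (GRCm38.p6). Motifs were searched on both strands. Levels per length are counts per kilobase of summed exons, scaled to 1000000 per library.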

Additional observations from a re-analysis of the deposited data

How the results depend on the processing

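Of the alternatives tried, the other filters, DESeq2's size factors, DESeq2's test, leaving out mitochondrial and rRNA-like genes and leaving out single libraries kept the direction of every member. Leaving out a library leaves 1 library in its group, so that the spread comes from the other group alone, and no calls are counted from those fits. In them the log2 fold change ranged from 1.52 to 2.66 for H2-T24, from 0.58 to 1.25 for H2-T10 and from 0.32 to 0.79 for H2-M3. The log2 differences of the sums ranged from 3.13 to 3.60 (H2-Q), 1.97 to 2.35 (H2-T), 1.98 to 2.37 (H2-M) and 2.34 to 2.68 (all members) as single libraries were left out.

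Scaling changed directions. Scaled to the 10 macrophage markers, 2 members were higher and 3 lower, beside 0.76% and 87.3% of all genes tested; log2 fold changes below 0 were those of H2-Q10 (-0.17), H2-T10 (-1.88), H2-T22 (-1.43), H2-T24 (-0.77) and H2-M3 (-2.22). Scaled to the 6 pan-leukocyte genes, 2 were higher and 3 lower, beside 0.559% and 90.7%, with values below 0 for H2-Q4 (-0.20), H2-Q10 (-0.59), H2-T10 (-2.31), H2-T22 (-1.84), H2-T23 (-0.043), H2-T24 (-1.21) and H2-M3 (-2.63). Scaled to H2-K1 plus H2-D1, 2 were higher and 3 lower, beside 1.62% and 86.7%, with H2-T10 (-1.65), H2-T22 (-1.18), H2-T24 (-0.54) and H2-M3 (-1.97) below 0. Scaled to B2m, 5 were higher and 1 lower, beside 2.72% and 72.4%, with H2-T10 (-0.97), H2-T22 (-0.52) and H2-M3 (-1.31) below 0. With library size alone the median of all genes was -0.52, and the sums differed by 2.83 (H2-Q), 1.63 (H2-T), 1.64 (H2-M) and 1.97 (all members). With the macrophage markers they differed by 0.54, -0.66, -0.65 and -0.31, and with the pan-leukocyte genes by 0.13, -1.07, -1.06 and -0.72, in the same order. Relative to B2m in place of H2-K1 plus H2-D1, the sums differed by 1.45 (H2-Q), 0.25 (H2-T), 0.27 (H2-M) and 0.60 (all members), each of the last 3 turning from below 0 (-0.41, -0.39 and -0.06) to above. Each scaling gene set itself rose, so by construction a scaling to it lowers every gene by a like amount.

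No paired analysis was possible because the groups share no replicate number in the labels. Mitochondrial share and cell type markers differ between the groups, so no scaling can be called the correct one from these 4 libraries. H2-M2, H2-Q10, H2-T24, H2-Q6 and H2-T10 rest on fewer than 100 counts in each SYK WT library.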

Other observations

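Class Ib genes other than the members were mostly silent. Of 29 such genes listed, 16 had a row in the count table, 9 of these had no count in any library and 3 passed the filter. H2-Q5, with 57, 20, 208 and 85 counts over M7 to M10, rose (log2 fold change 2.34, SE 0.614, adjusted p = 0.0259). H2-M9 had 26 and 27 counts in M7 and M8 and 0 in both libraries labelled SYK KO, at least 6.62-fold lower against a floor of 3 counts per library. It passed the filter through the SYK WT libraries alone, so no test is given. H2-M5, its neighbour in the H2-M group, had 80, 69, 8 and 24 counts, with M9 under the filter's level, and is likewise given without a test. By counts, these 2 genes lay lower in both libraries labelled SYK KO. The pseudogene H2-T-ps, which shares sequence with H2-T23, had 9, 10, 59 and 48 counts and passed the filter through the libraries labelled SYK KO alone.

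Of 5 class I-like genes outside the MHC that were tested, 2 rose, 2 fell and 1 did not pass the threshold. Over all genes tested 22.7% were higher and 16.7% lower, and no test of this list against all genes was made. Cd1d1, which presents lipids to NKT cells, had 871 and 880 counts in M7 and M8 and 341 and 359 in M9 and M10, and fell by 0.90 on the log2 scale (SE 0.183, adjusted p = 0.0114). Mr1, which presents vitamin B metabolites to MAIT cells, had 1039, 1003, 438 and 479 counts and fell by 0.73 (SE 0.180, adjusted p = 0.0209). The antibody receptor Fcgrt (138 ± 9.12 to 338 ± 69.5 CPM, log2 fold change 1.29, adjusted p = 0.00493) and the iron regulator Hfe (15.9 ± 1.79 to 52.4 ± 22.02 CPM, 1.72, adjusted p = 0.00742) rose. Both lipid and metabolite presenting genes thus lay lower in the libraries in which each of the 10 members lay higher by TMM-normalized CPM, 8 of them past the threshold. The fibroblast markers, which were lower in the same libraries, had a median log2 fold change of -1.44, and the macrophage markers a median of 3.01; the part of either in these values was not tested.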
